A study of Mus musculus with 24 samples.

Results

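The 10 genes described here encode lysosomal proteases and an extracellular inhibitor of them: 8 cathepsins (Ctsa, Ctsb, Ctsc, Ctsd, Ctsh, Ctsl, Ctss and Ctsz), legumain (Lgmn) and cystatin C (Cst3). They were chosen by gene symbol among the 53715 genes of an RNA-sequencing table of monocytes sorted from mouse peripheral blood (PB), and all 10 were detected in every library. The 24 libraries formed 6 groups of 4: Ly6Chi monocytes of wt and N2ΔMy mice after Sham treatment, Ly6Chi monocytes of both genotypes after imiquimod (IMQ) treatment, and Ly6Clo monocytes of both genotypes after IMQ treatment. A Ly6Clo Sham group was not analysed here, so the response to IMQ could be measured in Ly6Chi cells alone. The mice were C57BL/6 animals 8 to 10 weeks old. IMQ, an agonist of TLR7, was given as 50 mg of Aldara cream (5% imiquimod) per day on depilated skin, the Sham groups received Vaseline, and cells were sorted on day 5; a methods passage of the study calls the controls untreated instead. N2ΔMy mice carried a Cre recombinase in the Lyz2 locus, loxP-flanked Notch2 and GFP in the Cx3cr1 locus. The Lyz2 locus is active in neutrophils and macrophages as well as in monocytes, so the deletion is not particular to the sorted cells. The wt mice were littermate controls, whose alleles at the Lyz2 and Notch2 loci are not given in the sources used here. All cells were sorted as CD11b+, GFP+, CD115+, MHC-II negative and negative for a set of lineage markers that includes Ly6G. Ly6Chi cells were also sorted as CD43 negative.

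Cathepsins are made as inactive precursors, reach lysosomes mainly through mannose 6-phosphate receptors, and are activated by cleavage at acid pH. In monocytes, macrophages and dendritic cells they degrade engulfed material, trim the invariant chain from MHC class II molecules and cleave endosomal Toll-like receptors into their signaling forms. Ctsd is an aspartic endopeptidase, Ctsb, Ctsl and Ctss are cysteine endopeptidases, and Ctsc, Ctsh and Ctsz are cysteine exopeptidases. Ctsa is a serine carboxypeptidase that also shields the lysosomal enzymes beta-galactosidase and neuraminidase. Lgmn is a cysteine endopeptidase that cleaves after asparagine and processes several cathepsins. Cst3 is a secreted inhibitor of cysteine cathepsins, with a second site for Lgmn, and its transcript is abundant in myeloid cells.

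Lysosomal genes are known targets of the transcription factors TFEB and TFE3, which bind the E-box CACGTG. Windows of 300 bases around RefSeq transcription starts (250 before, 50 after, GRCm38.p6) were at hand for 8 of the 10 genes, namely Ctsa, Ctsc, Ctsd, Ctsl, Ctss, Ctsz, Lgmn and Cst3, with 2 windows each for Ctsa and Lgmn. CACGTG, which reads the same on both strands, occurred in the windows of 4 genes, Ctsa, Ctsd, Ctsl and Lgmn. For Ctsa and Lgmn it was in the second of the 2 windows alone, so 4 of the 10 windows held it. Of the 32851 windows of all genes 7.15% did. The 5 matches that lie before a RefSeq start are shown. These starts differ from the gene bounds given below, by which only the first Ctsd match lies outside its gene and the others lie inside theirs. Ctsd and Ctsl were called with IMQ and Ctsa and Lgmn were not, and no link between a match and a response was tested. Each is given 5′ to 3′ on the strand of the gene, as the 30 bases that hold it, with the E-box in capitals. The Ctsd matches began 245 and 98 bases before the start (chr7:142388048-142388077 and chr7:142387908-142387937, minus strand), and that of Ctsl 236 bases before it (chr13:64370739-64370768, minus strand). The Ctsa match began 12 bases before the start of its second window (chr2:164833743-164833772, plus strand), and the Lgmn match 49 bases before the start of its second window (chr12:102439124-102439153, minus strand).
Ctsd: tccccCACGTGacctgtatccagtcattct
Ctsd: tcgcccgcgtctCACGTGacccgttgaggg
Ctsl: ggcgttagaagcCACGTGctgatctaaatt
Ctsa: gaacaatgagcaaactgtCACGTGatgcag
Lgmn: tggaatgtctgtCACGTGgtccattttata
The core TGGGAA of the binding site of RBPJ, the DNA-binding partner of Notch receptors, was searched on both strands and occurred in the window of 1 of the 8 genes, Cst3, and in 25.6% of all windows. The core GAGGAA of the site of the myeloid factor PU.1, searched likewise, occurred in those of 3 genes, Ctsc, Ctss and Cst3, and in 28.3% of all windows. A match of these letters is a description of the sequence and not evidence of binding.

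In the annotation of the table (GRCm38) Cst3, Ctsa and Ctsz lie on chromosome 2, at chr2:148871722-148875692, chr2:164832873-164841032 and chr2:174427493-174439039. Ctsc and Ctsd lie on chromosome 7, at chr7:88278085-88310888 and chr7:142375911-142388038. Ctss lies at chr3:95526786-95556403, Ctsh at chr9:90054152-90076089 and Lgmn at chr12:102394084-102439813. Ctsl lies at chr13:64359337-64370890 and Ctsb at chr14:63122462-63145923. Exons of Pltp on the opposite strand cover 10.5% of the exon length of Ctsa, and exons of Fdft1 12.8% of that of Ctsb. Neurl2 and Nelfcd, also opposite, cover 6.9% of Ctsa and 0.7% of Ctsz. On the same strand RP23-145I16.3 covers 34.4% of Ctsd and RP24-145F3.4 6.1% of Ctsl, both with a mean count of 0. RP24-145F3.2 on the opposite strand, with a mean count of 0.29, covers 26.8% of Ctsl. How reads in shared bases were counted was not tested. The library kit keeps strand, but the strand setting of the read counting is not given in the sources used here. The mean normalized count over the 24 libraries was 1500 for Pltp against 7608 for Ctsa, and 286 for Fdft1 against 14695 for Ctsb.

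The values are normalized counts, the authors' reads per gene divided by a scale factor of each library and rounded to whole numbers. Reads per library, inferred from the spacing of low values, lay between 9520000 and 19760000. The library number that the labels give as the description of each sample falls into 2 separate runs of numbers, called library series here, with replicates 1 and 2 of each group in the first and 3 and 4 in the second, and the second was on the median the shallower, with 11940000 inferred reads against 15590000. Notch2 lay between 12656 and 20005 in the 12 wt libraries and between 7240 and 11518 in the 12 N2ΔMy libraries, without overlap, and its count also includes exons outside the deleted part. The study itself reports only a partial loss of Notch2 in Ly6Chi monocytes, by flow cytometry as well as by RNA. The genotype comparisons are therefore not ones of complete Notch2 loss. A gene was called where the limma p, adjusted by Benjamini-Hochberg over the 11230 genes tested, did not exceed 0.05 and its log2 fold change was 0.6 or more in either direction. The 5 monocyte markers (Csf1r, Itgam, Cx3cr1, Lyz2 and Cd68) summed to 71286 to 266322 normalized counts in every library, and the markers of T cells, NK cells and platelets to at most 29, 28 and 273. The 5 erythroid markers summed to 753, 1531, 1286 and 1543 in replicate 4 of the 4 IMQ groups, and to at most 92 in the other IMQ libraries and 372 in the Sham libraries. Libraries with the same replicate number deviated from their group means together, so a fit with the replicate number as a block is given where it changed a call of the 10 genes or of a gene list in a comparison given below.

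The transcripts differed far more between genes than between groups. Per kb of exon, Ctss was the most abundant in all 6 groups, with 16806 ± 339 normalized counts per kb (SD, n = 4) in wt Ly6Chi Sham cells, and Ctsl the least, with 46.0 ± 8.4. Cst3 was next to Ctss in every group, and in wt Ly6Clo cells the 2 genes overlapped, at 12060 ± 1267 per kb for Ctss and 10856 ± 3349 per kb for Cst3. In wt Ly6Chi Sham cells the order below Cst3 was Ctsz, Ctsb, Ctsa, Ctsh, Ctsc, Lgmn, Ctsd and Ctsl. The ranges of Ctsa and Ctsh overlapped there, as did those of Ctsh and Ctsc, and the other neighbours were apart in all 4 libraries. In wt Ly6Clo cells the order below Cst3 was Ctsb, Ctsz, Ctsa, Lgmn, Ctsh, Ctsd, Ctsc and Ctsl, with Ctsc down from the seventh place to the ninth, where its range overlapped that of Ctsd. In N2ΔMy Ly6Clo cells Lgmn reached 1926 ± 529 per kb and overlapped Ctsa at 1963 ± 223, while Ctsc, Ctsd and Ctsh, at 987 ± 166, 982 ± 167 and 813 ± 160 per kb, overlapped in turn.

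**Figure D1:**
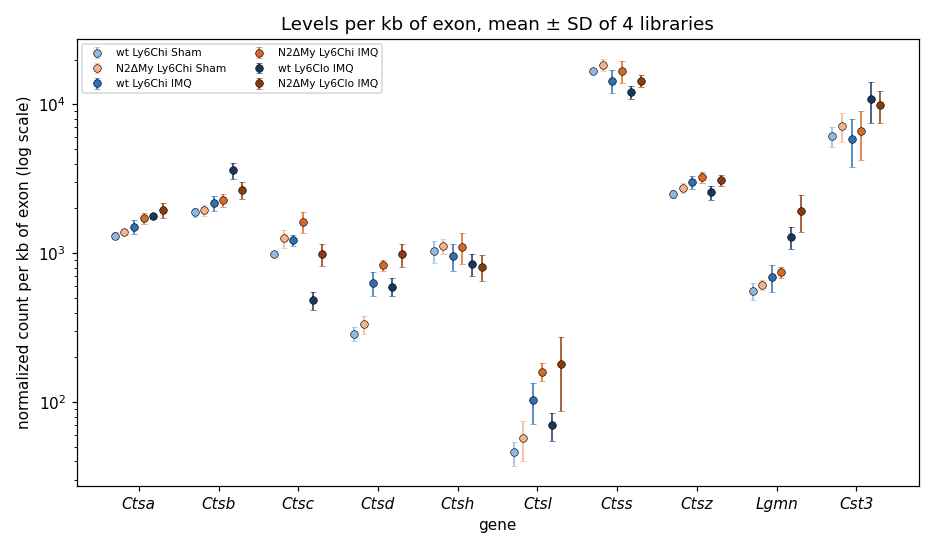
Normalized count per kb of exon on a log scale for each of the 10 genes, with the mean and SD of the 4 libraries of each group. Ctss lies highest in every group and Ctsl lowest, from 46.0 per kb in wt Ly6Chi Sham cells to 181 per kb in N2ΔMy Ly6Clo cells.

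**Figure D2:**
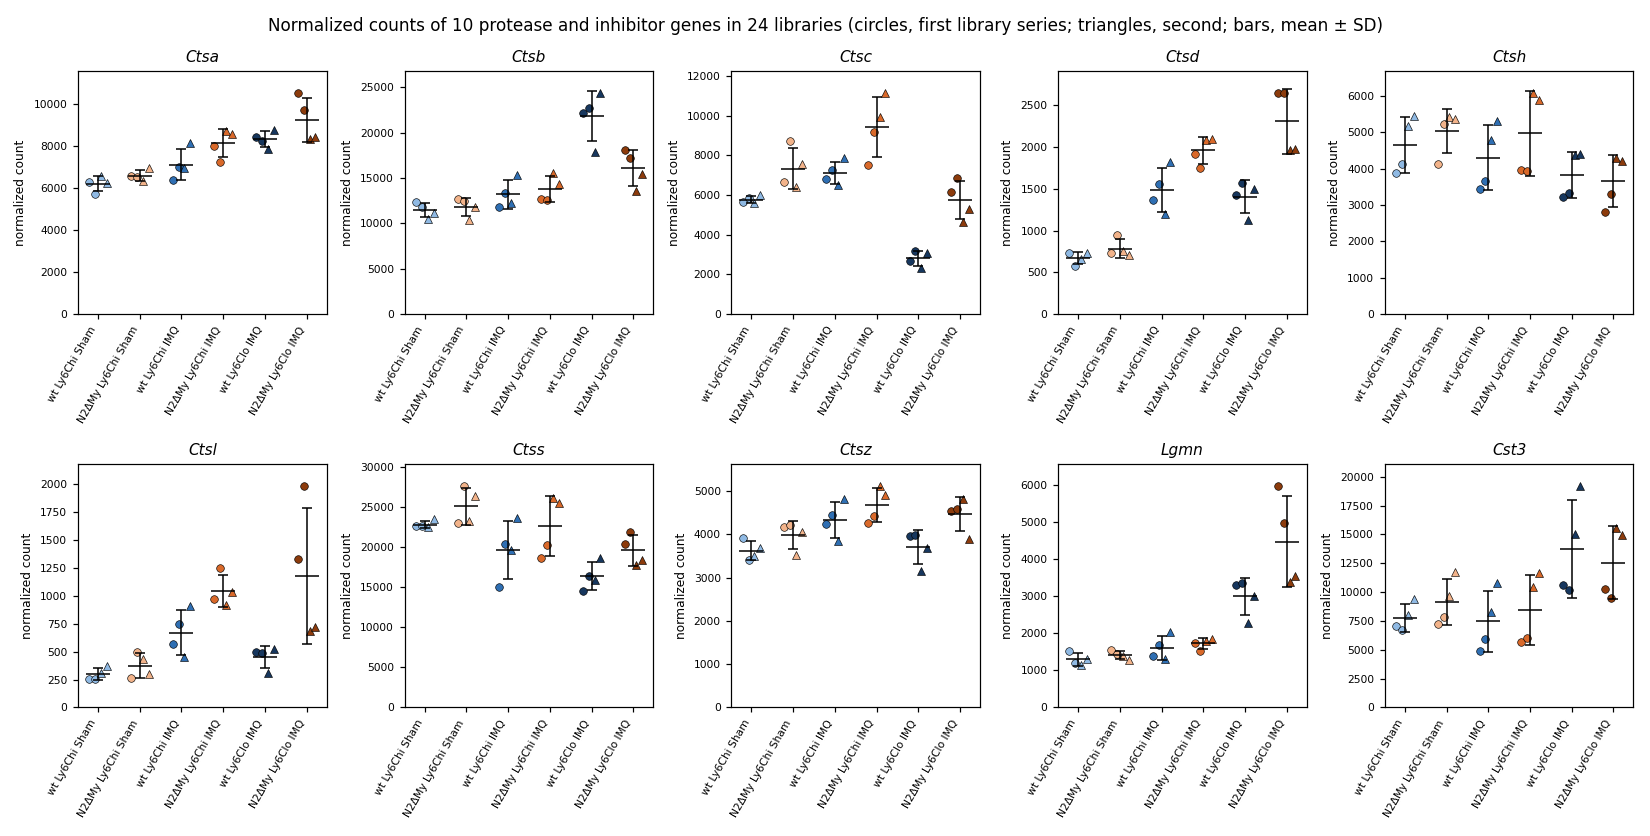
Normalized count of each gene (linear axis from 0) in the 24 libraries, as circles for the first library series and triangles for the second, with the mean ± SD of each group. Ctsd and Ctsl step up from Sham to IMQ, Ctsc is lowest in wt Ly6Clo cells, Lgmn is highest in Ly6Clo cells, and the triangles of Ctsh and Cst3 lie above the circles.

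The first comparison asked how the transcripts differed between Ly6Chi monocytes of IMQ- and Sham-treated mice. Ctsd, the main aspartic protease of lysosomes, and Ctsl, a cysteine endopeptidase of the same compartment, rose in both genotypes, and no other gene of the 10 was called. In wt cells 2 of 10 were called, both higher, where 9.49% of all tested genes were called and 4.43% were called higher. In N2ΔMy cells the same 2 genes were called, against 8.7% of all genes called and 4.15% called higher.

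Ctsd was measured at 735, 581, 658 and 732 normalized counts in wt Ly6Chi Sham cells and at 1366, 1562, 1194 and 1818 in wt Ly6Chi IMQ cells. All 4 IMQ libraries lay above all 4 Sham libraries. This was a log2 fold change of 1.12 (SE 0.13), or 2.18-fold, with an adjusted p of 0.00043. In N2ΔMy Ly6Chi cells Ctsd was at 727, 949, 752 and 708 after Sham and at 1917, 1755, 2079 and 2093 after IMQ. The groups were again apart, and the log2 fold change was 1.33 (SE 0.11), or 2.51-fold, with an adjusted p of 9.6e-05. Fewer cells of a type and less RNA per cell cannot be told apart in bulk libraries.

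Ctsl was at 256, 256, 310 and 371 normalized counts in wt Sham cells and at 570, 743, 448 and 910 in wt IMQ cells. No IMQ library overlapped a Sham library, and the log2 fold change was 1.13 (SE 0.21), or 2.18-fold, with an adjusted p of 0.0051. In N2ΔMy cells it was at 263, 500, 437 and 296 after Sham and at 972, 1252, 916 and 1029 after IMQ, also apart. Its log2 fold change there was 1.52 (SE 0.20), or 2.86-fold, with an adjusted p of 0.00098. In wt cells the Ctsl call was lost within the second library series alone (log2 fold change 0.91, adjusted p = 0.11) and with no filter on low values (adjusted p = 0.062), while Ctsd passed in both. Both genes were called in both genotypes in every fit that left out 1 library.

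Among the other genes, Ctsc, which activates granule serine proteases, lay in wt cells at 5594 to 5986 normalized counts after Sham and at 6521 to 7848 after IMQ, without overlap. Its log2 fold change was 0.30 (SE 0.08, adjusted p = 0.028), under the fold threshold. In all, 3 of 10 genes did not overlap between the wt groups, where 21.5% of all genes did not, and 4 of 10 in N2ΔMy cells, where 19.5% did not. Besides Ctsd and Ctsl, these were in N2ΔMy cells Ctsa, at 6341 to 6962 after Sham and 7245 to 8735 after IMQ, and Ctsz, at 3519 to 4209 and 4255 to 5110. Ctsb, Ctsz, Lgmn and Ctsa had log2 fold changes of 0.19 to 0.30 in both genotypes, none of them called. Ctss, the endopeptidase that completes invariant chain cleavage in dendritic cells and B cells, was at 22509 to 23508 in wt Sham cells and spread over 14992 to 23668 after IMQ (log2 fold change -0.23, adjusted p = 0.26). Ctsh and Cst3 had log2 fold changes between -0.16 and -0.04. The median log2 fold change of the 10 genes was 0.23 in wt and 0.25 in N2ΔMy cells, and that of all genes tested 0.01 and 0.01.

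Markers of other cell types moved with the IMQ contrast. The summed normalized count of 8 neutrophil markers lay between 876 and 1358 in wt Ly6Chi Sham cells and between 3107 and 8591 in wt Ly6Chi IMQ cells, and from 708 to 1388 and from 3335 to 8459 in N2ΔMy cells, with 3 of 4 tested markers (S100a8, S100a9 and Mmp8) called higher in either genotype. The defining marker Ly6g was at 0 in all 4 libraries of both IMQ groups, and Camp in those of wt. The summed count of 5 dendritic cell markers moved the other way, from 823 to 1474 after Sham to 270 to 529 after IMQ in wt cells, with 3 of 4 tested markers called lower in either genotype. The 8 macrophage markers summed to 6192 to 7672 after Sham and 3259 to 4337 after IMQ in wt cells, without overlap, and to 5742 to 8418 and 4492 to 6356 in N2ΔMy cells. Of 7 tested, Fcgr1 and Siglec1 were called lower in both genotypes (-1.15 and -3.56 in wt cells), and Adgre1 (0.66) and Mertk (1.20) were called higher in N2ΔMy cells. The sort gated out cells with Ly6G, the surface marker of neutrophils, and with MHC-II, which dendritic cells carry. The part of these marker lists in the levels of Ctsd and Ctsl was not tested.

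**Figure D3:**
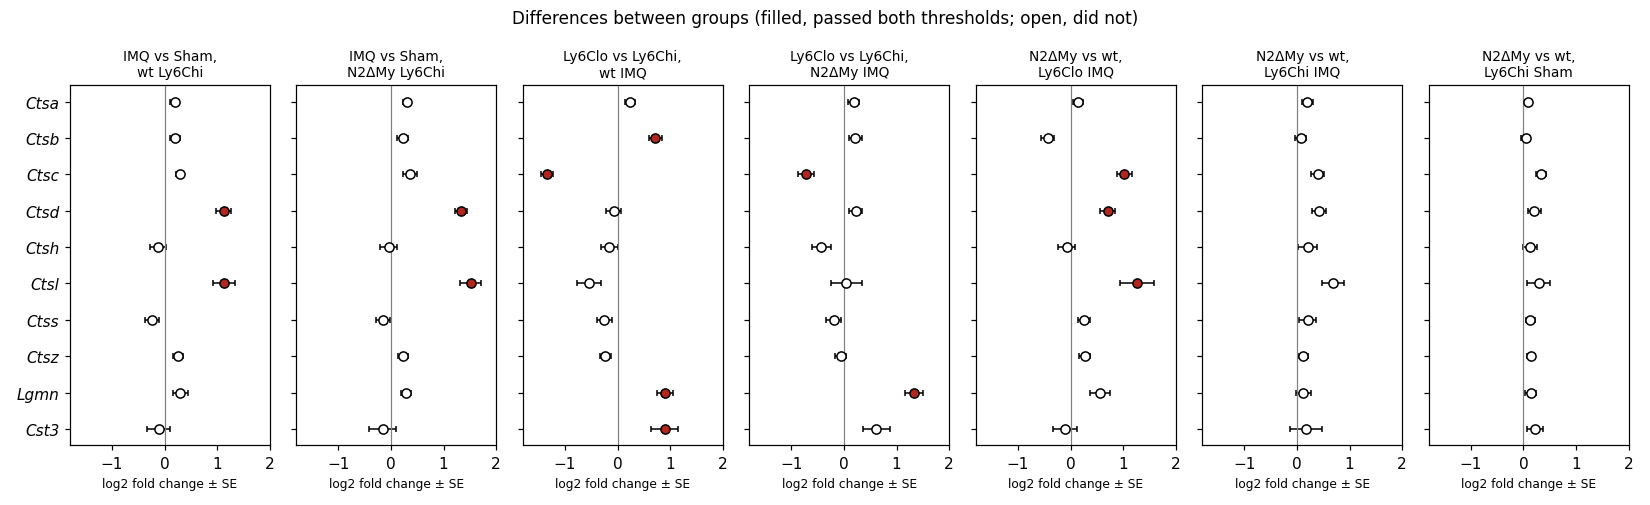
Log2 fold change with its standard error for the 10 genes in the 7 comparisons between pairs of groups, filled where both thresholds were passed. Ctsd and Ctsl are filled for IMQ in both genotypes. For subset Ctsc and Lgmn are filled in both genotypes, and Ctsb and Cst3 in wt alone. Ctsc, Ctsd and Ctsl are filled for genotype in Ly6Clo cells, and no point is filled for genotype in Ly6Chi cells.

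The second comparison set Ly6Clo against Ly6Chi monocytes of IMQ-treated mice. In wt cells Lgmn, Ctsb and Cst3 were higher in Ly6Clo cells and Ctsc was lower, so that 4 of 10 genes were called, where 24.6% of all genes were, 11.9% higher and 12.7% lower. In N2ΔMy cells Lgmn was higher and Ctsc lower, 2 of 10 against 17.4% of all genes, 9.01% higher and 8.38% lower. The wt Ly6Chi IMQ and N2ΔMy Ly6Chi IMQ libraries are the ones that also enter the comparison with Sham, so the 2 sets of values are not independent. Fixed markers of both subsets were read beside these values. The 5 Ly6Chi markers were called lower and the 6 Ly6Clo markers higher in Ly6Clo cells of both genotypes. Among them Ly6c2 and Spn encode the sort antigens Ly6C and CD43, so their directions follow from the gates and are no check of identity. Other marker lists moved with subset too. The neutrophil markers summed to 36 to 267 in wt and 166 to 311 in N2ΔMy Ly6Clo cells, under all Ly6Chi IMQ libraries, with 3 of 4 tested called lower in both genotypes. The macrophage markers summed to 4830 to 6838 in wt Ly6Clo cells, with 2 of 7 tested called higher (3 with the block, which added C1qb) and 1 lower, and to 9530 to 14411 in N2ΔMy Ly6Clo cells, above all Ly6Chi IMQ libraries, with 5 of 7 higher. Of 4 tested dendritic cell markers Zbtb46 was higher (2.51) and Flt3 lower (-1.84) in wt, and Zbtb46 (3.73) and Clec9a (2.92) were higher in N2ΔMy Ly6Clo cells, where the block added Cd209a (2.62, adjusted p = 0.038). Among the erythroid and platelet markers the block added Hbb-bs (1.49, adjusted p = 0.020) and Itga2b (0.90, adjusted p = 0.018) as higher in wt Ly6Clo cells, and Ppbp with IMQ in wt Ly6Chi cells (1.59, adjusted p = 0.033). In N2ΔMy Ly6Chi cells Ppbp was called higher with IMQ without the block (2.79, adjusted p = 0.015), at 2.0 ± 1.8 after Sham and 17.5 ± 7.6 after IMQ. The part of these lists in the levels of Lgmn, Ctsb, Cst3 and Ctsc was not tested.

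Ctsc was at 6820, 7240, 6521 and 7848 normalized counts in wt Ly6Chi IMQ cells and at 2674, 3171, 2314 and 3075 in wt Ly6Clo IMQ cells. Every Ly6Clo library lay below every Ly6Chi library. It changed by -1.35 on the log2 scale (SE 0.11), to 0.39 of the Ly6Chi level, with an adjusted p of 7.8e-06. In N2ΔMy mice Ctsc was at 7517, 9180, 9911 and 11138 in Ly6Chi and at 6135, 6860, 4651 and 5291 in Ly6Clo cells, again apart. Here the log2 fold change was -0.72 (SE 0.15), with an adjusted p of 0.0047. Within the first library series it was -0.36 and not called (adjusted p = 0.070), and within the second -1.08 (adjusted p = 0.00019). With no filter on low values the adjusted p was 0.052.

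Lgmn was at 1391, 1688, 1320 and 2034 normalized counts in wt Ly6Chi and at 3313, 3366, 2284 and 3022 in wt Ly6Clo cells, with no overlap. Lgmn was thus 0.90 higher on the log2 scale (SE 0.16), or 1.87-fold, with an adjusted p of 0.0013. In N2ΔMy mice it rose from 1746, 1526, 1783 and 1859 to 5975, 4976, 3393 and 3550, the 2 highest values being those of the first library series. Its log2 fold change there was 1.33 (SE 0.17), or 2.52-fold, with an adjusted p of 0.00021. It was 1.74 within the first series and 0.93 within the second.

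Ctsb, a broad endopeptidase that also trims dipeptides, was at 11775, 13401, 12270 and 15347 normalized counts in wt Ly6Chi and at 22157, 22706, 17895 and 24371 in wt Ly6Clo cells. The groups were apart, with a log2 fold change of 0.72 (SE 0.13), or 1.65-fold, and an adjusted p of 0.0011. In N2ΔMy cells the values overlapped, at 12582 to 15578 in Ly6Chi and 13555 to 18063 in Ly6Clo cells (log2 fold change 0.22, adjusted p = 0.23). In wt cells the second library series alone gave 0.61 for Ctsb and 0.68 for Lgmn, with adjusted p of 0.073 and 0.074.

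Cst3 was at 4855, 5960, 8256 and 10767 normalized counts in wt Ly6Chi and at 10606, 10163, 15015 and 19189 in wt Ly6Clo cells. The groups overlapped, with the second series the higher in both, but each Ly6Clo library exceeded the Ly6Chi library with its number. The log2 fold change was 0.90 (SE 0.26), or 1.86-fold, with an adjusted p of 0.020, and of 4.1e-07 with the replicate block. Without the block the call was lost when replicate 1 or 2 of the Ly6Chi group or replicate 3 or 4 of the Ly6Clo group was left out (adjusted p 0.050 to 0.058), and with no filter on low values (adjusted p = 0.15). In N2ΔMy cells Cst3 was at 5664, 5986, 10436 and 11686 in Ly6Chi and at 10293, 9454, 15541 and 14967 in Ly6Clo cells. The log2 fold change of 0.61 (SE 0.25) was not called (adjusted p = 0.10), and it was called with the replicate block (SE 0.10, adjusted p = 0.00093), where 20.5% of all genes were, and when replicate 4 of N2ΔMy Ly6Chi IMQ was left out (0.79, adjusted p = 0.045).

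The remaining genes passed in neither genotype. Ctsl had a log2 fold change of -0.54 in wt cells (adjusted p = 0.095) and was called lower only when replicate 3 of wt Ly6Chi IMQ was left out (-0.71, adjusted p = 0.031). In N2ΔMy cells its values split by library series, at 1326 and 1981 against 681 and 720 in Ly6Clo cells, and the log2 fold change of 0.04 turned from 0.55 in the first series to -0.47 in the second. Ctsd did not differ by more than its error between subsets of wt mice (log2 fold change -0.07, SE 0.15), at 1129 to 1570 in Ly6Clo and 1194 to 1818 in Ly6Chi cells. Ctss and Ctsz were lower in all 4 wt Ly6Clo libraries than in the Ly6Chi libraries of the same number, by -0.25 (SE 0.14) and -0.23 (SE 0.11) on the log2 scale, not called. Ctsh was lower in 4 of 4 such pairs in both genotypes (-0.16, SE 0.16, and -0.43, SE 0.18), likewise not called. Without overlap between subsets were 3 of 10 genes in wt cells, against 35.4% of all genes, and 2 of 10 in N2ΔMy cells, against 27.8%. The median log2 fold change of the 10 genes was -0.12 in wt and 0.11 in N2ΔMy cells, and that of all genes -0.01 in both.

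The third comparison set N2ΔMy against wt cells within a subset. In Ly6Clo IMQ cells Ctsc, Ctsd and Ctsl were higher in N2ΔMy mice, 3 of 10 genes, where 4.78% of all genes were called and 3.12% were called higher. With the replicate block the same 3 were called, against 8.36% of all genes. In Ly6Chi cells none of the 10 was called by limma, against 0.0267% of all genes in the IMQ groups and 0.0178% in the Sham groups. At an unadjusted p under 0.05, 7 of 10 genes passed in Ly6Clo IMQ cells, 3 of 10 in Ly6Chi IMQ cells and 1 of 10 in Ly6Chi Sham cells, and of all genes 19.5%, 6.05% and 5.21%.

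Ctsc, at 2674, 3171, 2314 and 3075 in wt Ly6Clo cells, was at 6135, 6860, 4651 and 5291 normalized counts in N2ΔMy Ly6Clo cells. No library overlapped, and the log2 fold change was 1.03 (SE 0.14), or 2.04-fold, with an adjusted p of 0.0019. It was called within each library series (1.16 and 0.89) and in every fit that left out 1 library. Ctsd was at 1424, 1570, 1129 and 1502 in wt and at 2648, 2648, 1961 and 1977 in N2ΔMy Ly6Clo cells, apart, with a log2 fold change of 0.71 (SE 0.14), or 1.64-fold, and an adjusted p of 0.015. Its call held in every such fit too, and it was lost within the second series (0.60, adjusted p = 0.10) and with no filter on low values (adjusted p = 0.13).

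Ctsl was at 495, 484, 308 and 527 normalized counts in wt and at 1326, 1981, 681 and 720 in N2ΔMy Ly6Clo cells. The groups did not overlap, but the 2 libraries of the first series lay far above those of the second. The log2 fold change was 1.26 (SE 0.32), or 2.40-fold, with an adjusted p of 0.043, and of 0.0012 with the replicate block. Without the block the call was lost when any of the 4 wt libraries, or N2ΔMy replicate 1 or 2, was left out (adjusted p 0.074 to 0.11), and with no filter on low values (adjusted p = 0.30). It was 1.73 within the first series and 0.80 within the second, where it was not called (adjusted p = 0.18).

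Lgmn and Ctsb lay in opposite directions between genotypes and did not pass both thresholds over the 8 libraries. Lgmn did not overlap, at 2284 to 3366 in wt and 3393 to 5975 in N2ΔMy Ly6Clo cells, with a log2 fold change of 0.55 (SE 0.19, adjusted p = 0.13). The block gave it an adjusted p of 0.0019, with a fold under the threshold, and within the first library series it was called (0.71, adjusted p = 0.017). Ctsb was lower in N2ΔMy Ly6Clo cells in 4 of 4 pairs of the same number, at 13555 to 18063 against 17895 to 24371, with a log2 fold change of -0.44 (SE 0.13, adjusted p = 0.082). The block gave Ctsb 0.0030, again with too small a fold. Ctss, Ctsz and Ctsa had log2 fold changes of 0.26, 0.27 and 0.15, and Ctsh and Cst3 of -0.07 and -0.11, none called. The groups of 4 of 10 genes did not overlap, against 12.8% of all genes. The median log2 fold change was 0.27 for the 10 genes and 0.00 for all genes.

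Markers of other monocyte states and cell types moved with this genotype contrast. The summed normalized count of the 5 Ly6Chi markers was 734, 827, 1892 and 524 in wt Ly6Clo libraries and 10009, 9855, 9535 and 7117 in N2ΔMy Ly6Clo libraries. Of this list Ccr2, Vcan and F13a1 were called higher, and with the replicate block all 5 were, while Ly6c2 itself lay at 12 to 92 in wt and 46 to 382 in N2ΔMy cells, against 2615 to 6233 in wt Ly6Chi IMQ cells. The 6 Ly6Clo markers summed to 146415 to 167984 in wt and 82308 to 98975 in N2ΔMy cells, with 4 of 6 called lower, and 5 with the block. The 8 macrophage markers summed to 6164, 6489, 4830 and 6838 in wt and to 13095, 14411, 9530 and 10042 in N2ΔMy cells, with 6 of 7 tested genes called higher. The 5 dendritic cell markers summed to 116, 144, 522 and 83 in wt and 306, 206, 1626 and 637 in N2ΔMy cells, with none called without the block and Flt3 (1.91) and Clec9a (1.34) with it. Of the neutrophil markers Mmp8 was called higher, at 22 ± 2 in wt and 63 ± 24 in N2ΔMy cells (1.42, adjusted p = 0.035). The macrophage sum and Ctsa, Ctsb, Ctsc, Ctsd, Ctsl, Ctss and Lgmn were all higher in replicates 1 and 2 of the N2ΔMy group than in replicates 3 and 4. Ctsh, Cst3 and the sum of the invariant chain and MHC class II genes ran the other way, the sum at 7231, 8260, 43465 and 22993. The part of these populations in the levels of Ctsc, Ctsd and Ctsl was not tested.

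**Figure D4:**
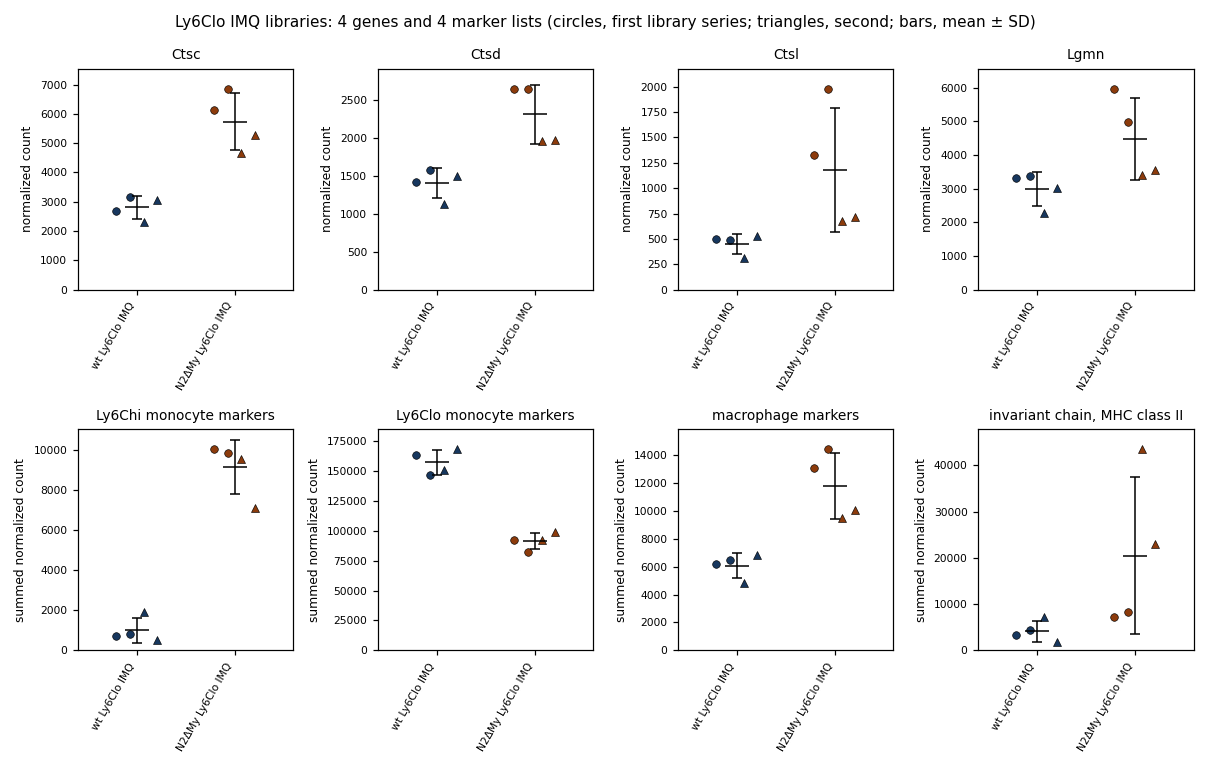
Normalized counts of Ctsc, Ctsd, Ctsl and Lgmn and summed normalized counts of 4 marker lists in the 8 Ly6Clo IMQ libraries (circles, first library series, triangles, second, with mean ± SD). The 4 genes, the Ly6Chi markers and the macrophage markers lie higher in all N2ΔMy libraries, the Ly6Clo markers lie lower, and the MHC class II sum is highest in the 2 N2ΔMy libraries of the second series.

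In Ly6Chi IMQ cells all 10 log2 fold changes between N2ΔMy and wt were above 0, between 0.07 and 0.68, with a median of 0.20 against 0.01 for all genes, of which 53.0% were above 0. The largest was that of Ctsl, at 570, 743, 448 and 910 in wt and 972, 1252, 916 and 1029 in N2ΔMy cells, without overlap. Its log2 fold change was 0.68 (SE 0.20), which was not called (adjusted p = 0.60) and was called with the replicate block (SE 0.12, adjusted p = 0.021), where 0.481% of all genes were called. In the same groups the Ly6Chi markers summed to 55152 to 67847 in wt and 69878 to 81724 in N2ΔMy cells, without overlap and with none called, and the Ly6Clo markers Ace (-1.28) and Nr4a1 (-1.004) were called lower with the block. The macrophage markers summed to 3259 to 4337 in wt and 4492 to 6356 in N2ΔMy cells, likewise without overlap and with none called. Their part in the level of Ctsl was not tested. It was the 1 gene of the 10 that did not overlap, against 3.84% of all genes. Ctsd and Ctsc followed at 0.41 (SE 0.13) and 0.40 (SE 0.12), each with an adjusted p of 0.60 and higher in 4 of 4 pairs.

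In Ly6Chi Sham cells the 10 log2 fold changes were again above 0, between 0.05 and 0.34, with a median of 0.14 against 0.01 for all genes, of which 52.2% were above 0. Ctsc was at 5645, 5848, 5594 and 5986 in wt and at 6674, 8723, 6395 and 7538 in N2ΔMy cells. These values did not overlap, as in 3.15% of all genes, and the log2 fold change was 0.34 (SE 0.10, adjusted p = 0.92). Of the monocyte markers Lyz2, whose locus carries the Cre, was at -0.75 (adjusted p = 0.88) and was called lower with the replicate block (adjusted p = 0.031), where 0.0267% of all genes were called. The 6 Ly6Clo markers summed to 31782 to 35019 in wt and 21608 to 27053 in N2ΔMy cells, without overlap and with none called. The part of these markers in the level of Ctsc was not tested. Since the 10 genes share libraries and scale factors, the count of their directions carries no test of its own.

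Whether the difference between genotypes differed between subsets was tested as an interaction over the 16 IMQ libraries. None of the 10 genes was called by limma, where 1.03% of all genes were, and 2 of 10 had an unadjusted p under 0.05, where 8.33% of all genes did. These were Ctsc, with an interaction of 0.63 (SE 0.19, adjusted p = 0.20), and Ctsb, with -0.50 (SE 0.17, adjusted p = 0.29). With the replicate block the Ctsc interaction was called (SE 0.16, adjusted p = 0.037), where 2.41% of all genes were, and it was 0.91 within the first series and 0.34 within the second. Ctsd, Ctsl and Lgmn, at 0.30 (SE 0.20), 0.58 (SE 0.41) and 0.43 (SE 0.25), were not shown to differ. Whether the response to IMQ differed between genotypes was tested in the same way over the 16 Ly6Chi libraries. No gene of those tested was called by limma, 1.58% of them had an unadjusted p under 0.05, and none of the 10 did, with interactions of 0.21 (SE 0.18) for Ctsd and 0.39 (SE 0.32) for Ctsl.

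Over all 6 groups, 8 of 10 genes differed in the limma F-test, where an adjusted p up to 0.01 was called, against 43.0% of all genes. Ctsd and Ctsc had the smallest adjusted p, 2.1e-10 and 1.2e-09, followed by Lgmn at 5.5e-09. The 2 genes that did not pass were Cst3 (adjusted p = 0.019) and Ctsh (adjusted p = 0.11), and both passed with the replicate block, where all 10 did against 57.1% of all genes. The call of Ctss was lost without replicate 1 of wt Ly6Clo IMQ, and that of Ctsz in 10 of the 24 fits that left out 1 library, while Cst3 was called in 2 of them, without replicate 4 of wt or of N2ΔMy Ly6Chi IMQ. The highest group mean was 3.95 times the lowest for Ctsl, 3.45 times for Lgmn, 3.41 times for Ctsd and 3.36 times for Ctsc. For Ctsz it was 1.29 times, for Ctsh 1.38 times and for Ctsa 1.49 times.

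Cst3 and Ctsh followed the library series. In all 6 groups their mean was higher in the second series than in the first, by 0.34 to 0.92 on the log2 scale for Cst3 and by 0.22 to 0.60 for Ctsh. In N2ΔMy Ly6Chi IMQ cells Ctsh was at 3972 and 3939 in the first series and at 6085 and 5880 in the second. The other 8 genes went both ways, and the widest was Ctsl, with differences from -1.21 to 0.40. What the series stand for is not given in the sources used here, so their part in these levels was not tested.

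**Figure D5:**
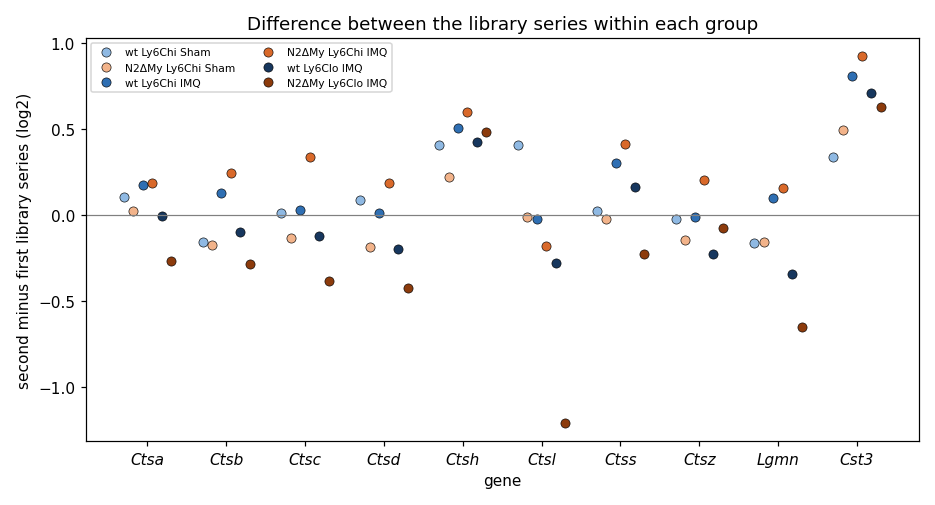
Difference between the mean log2 values of the second and the first library series for each gene and group. All 6 points of Cst3 and of Ctsh lie above 0, and the lowest point, of Ctsl in N2ΔMy Ly6Clo IMQ cells, lies at -1.21.

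The level patterns of some of the 10 genes resembled each other over the 24 libraries, which share the group structure and the library series. Pearson r of log2 values was 0.91 for Ctsd with Ctsl, and 0.87 for Ctsa with Lgmn and for Ctsa with Ctsd. The lowest was -0.60, for Ctsb with Ctsc. Over all tested genes, the 3 most like Ctsd were C5ar1 (r = 0.96), Golm1 and Adam9 (0.95 each), and those most like Ctsl were Gusb (0.91), which encodes the lysosomal enzyme beta-glucuronidase, Ctsd (0.91) and Mpp1 (0.90). Those most like Ctsc were Adam15 (0.95), Capg and Surf4 (0.94 each). Lgmn was most like RP23-185A18.9 and Adgre1, which encodes F4/80 (0.96 each), and Gnb1 (0.95). Ctsa was most like Actn4 (0.95), Gpx1 and Cnppd1 (0.94 each), and Ctsb most like Rassf5 (0.95), Ppp2r5c and Abhd2 (0.94 each). Cst3 was most like B2m (0.96), Clec4a3 (0.955) and Cd48 (0.94), and Ctsh most like Mrpl30 (0.95), Ifitm6 (0.94) and Ly6e (0.93), patterns that include the difference between library series. The nearest to Ctss were Gltp (0.92), Plbd1 (0.88) and Ccl2 (0.87), and to Ctsz Cotl1, Psmc4 (0.90 each) and Otub1 (0.88).

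Of the 18 other cathepsin genes in the table, 3 reached the level for testing. Ctse, an aspartic protease of endosomes, was lower with IMQ in wt Ly6Chi cells, at 494 ± 293 after Sham and 156 ± 43 after IMQ (log2 fold change -1.53, adjusted p = 0.011). It was also lower in Ly6Clo than in Ly6Chi cells, by -1.06 in wt and -1.41 in N2ΔMy mice (adjusted p 0.0062 and 0.0097). In N2ΔMy Ly6Chi cells the log2 fold change of Ctse with IMQ was -0.84 (adjusted p = 0.17), which was called with the replicate block (adjusted p = 0.0081), where 9.89% of all genes were. Of the other cystatins and protease inhibitors, 5 of 26 in the table were tested. Cstb, the cytosolic inhibitor of cathepsins, was at 204 ± 65 after Sham and 371 ± 92 after IMQ in wt Ly6Chi cells (0.88, adjusted p = 0.024) and was lower in Ly6Clo cells, by -1.61 in wt and -1.32 in N2ΔMy mice (adjusted p 0.00024 and 0.0012). Serpinb6a was at 118 ± 34 in wt Ly6Chi and 2048 ± 366 in wt Ly6Clo IMQ cells (4.14, adjusted p = 3.8e-07), with 4.03 in N2ΔMy cells. Serpinb1a, an inhibitor of neutrophil serine proteases, was lower in wt Ly6Clo cells (-1.45, adjusted p = 0.00023) and higher in N2ΔMy than in wt Ly6Clo cells (1.16, adjusted p = 0.014). With IMQ in N2ΔMy Ly6Chi cells no gene of this list was called, and the block called Cstb (0.73, adjusted p = 0.0073, against 0.056 without it) and Serpinb1a (1.07, adjusted p = 0.0024, against 0.073).

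The list of lysosomal sorting and transcription held 16 genes, all tested. With IMQ 1 of 16 was called in Ly6Chi cells of each genotype, against 9.49% of all genes in wt and 8.7% in N2ΔMy cells. This was Igf2r, the large mannose 6-phosphate receptor, from 31 ± 17 to 354 ± 97 in wt (log2 fold change 3.66, adjusted p = 0.00044) and from 32 ± 5 to 368 ± 69 in N2ΔMy cells (3.45, adjusted p = 1.7e-05). Between subsets of wt mice 3 of 16 were higher and 3 lower in Ly6Clo cells, against 11.9% and 12.7% of all genes. Igf2r reached 1976 ± 229 (2.51). Psap (-1.22), the precursor of the saposins, and Mitf (-1.03), which encodes a relative of TFEB, were lower, and Tfec, another relative, was at 149 ± 51 in Ly6Chi and 1.0 ± 2.0 in Ly6Clo cells. Tfeb itself (0.74, adjusted p = 0.00011) and Gnptg (0.81, adjusted p = 0.017), both named here after their values were seen, were higher. In N2ΔMy mice 1 was higher, Igf2r (2.29), against 9.01% of all genes, and 3 were lower, against 8.38%, Psap (-0.96), Gnptab (-0.63), which encodes an enzyme that makes the mannose 6-phosphate tag, and Tfec, at 143 ± 16 in Ly6Chi and 0.25 ± 0.50 in Ly6Clo cells. Mitf was the 1 gene of the list that differed between genotypes in Ly6Clo cells, at 259 ± 19 in wt and 565 ± 69 in N2ΔMy cells (1.12, adjusted p = 0.00070), where 4.78% of all genes were called. Its interaction with subset was 0.69 (adjusted p = 0.075), which was called with the block (adjusted p = 0.022). The median log2 fold change of the 16 genes was between -0.22 and 0.10 in these 5 comparisons.

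A list of 11 genes held the invariant chain and genes of MHC class II and its loading. With IMQ 6 were lower and 1 higher in wt Ly6Chi cells, where 9.49% of all genes were called, and 7 lower and 1 higher in N2ΔMy cells, where 8.7% were. The block added H2-DMa to the genes lower with IMQ in both genotypes (-0.71 and -0.62, adjusted p 0.0018 and 0.0017), where it called 11.9% and 9.89% of all genes. The 1 higher was Ifi30, which encodes a lysosomal thiol reductase and is named here after its values were seen (0.83 in wt, adjusted p = 0.0026, and 0.73 in N2ΔMy cells, adjusted p = 0.011). H2-Ab1, H2-Aa and H2-Eb1, chains of MHC class II, fell by 2.38, 2.29 and 2.20 on the log2 scale in wt cells (adjusted p 0.00035, 0.00073 and 0.0074), and Cd74, the invariant chain that Lgmn, Ctss and Ctsl cleave, was at 8036 ± 2886 after Sham and 2507 ± 499 after IMQ (-1.63, adjusted p = 0.0012). In N2ΔMy cells H2-Eb1 (-2.79), H2-Aa (-2.60), H2-Ab1 (-2.59) and Cd74 (-1.78) were the largest changes of the list, with adjusted p of 0.00033 to 0.00093. These cells were sorted as MHC-II negative, so the gate bears on this list. In wt Ly6Clo cells 3 of 11 were lower than in Ly6Chi cells, Ifi30 (-1.90), H2-DMa (-1.84) and H2-DMb1 (-1.12), and none was higher, where 12.7% of all genes were lower and 11.9% higher. The block added Ciita (-1.62, adjusted p = 0.00023), which encodes the transactivator of MHC class II genes, and Cd74 (-0.94, adjusted p = 0.0011), where it called 28.5% of all genes. In N2ΔMy mice 4 of 11 were higher, namely H2-Eb1 (3.85), H2-Aa (2.82), H2-Ab1 (2.61) and H2-Ob (2.08), and 1 was lower, again Ifi30 (-1.35), named likewise, where 9.01% of all genes were higher and 8.38% lower. The spread was wide, with H2-Aa at 2594 ± 2639 and H2-Ab1 at 3455 ± 3448 in N2ΔMy Ly6Clo cells, and the list summed to 7231 and 8260 in the first library series and 43465 and 22993 in the second, against 7033, 7456, 10934 and 9559 in N2ΔMy Ly6Chi IMQ cells. The block added Cd74 as higher (1.26, adjusted p = 0.0028) and H2-DMa as lower (-0.66, adjusted p = 0.0019), where it called 20.5% of all genes. Between genotypes in Ly6Clo cells Cd74 was the 1 gene called, at 1322, 1648, 2679 and 467 in wt and 3446, 3749, 18001 and 9453 in N2ΔMy cells (2.41, adjusted p = 0.037), and 8 of 11 were called higher with the replicate block, against 8.36% of all genes called. In the interaction with subset none was called by limma, where 1.03% of all genes were, and the block called 4 of 11, against 2.41%, H2-Eb1 (3.08), H2-Aa (2.75), Cd74 (2.20) and H2-DMa (1.18), with adjusted p of 0.0020 to 0.043.

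Of 5 genes for endosomal receptors and their chaperone, Tlr9 was lower with IMQ in wt Ly6Chi cells, at 2117 ± 226 after Sham and 786 ± 130 after IMQ (log2 fold change -1.44, adjusted p = 0.00011), and lower again in Ly6Clo cells (-1.67), as was Unc93b1, the chaperone that carries these receptors to endosomes (-0.75, adjusted p = 0.00029). In N2ΔMy Ly6Chi cells Tlr9 (-1.33) and Tlr3 (-1.51) were lower with IMQ, and Tlr9 was lower in Ly6Clo than in Ly6Chi cells (-1.03, adjusted p = 0.00074). In Ly6Clo cells Tlr7, the receptor of imiquimod, was lower in N2ΔMy mice, at 2042 ± 302 against 3347 ± 494 (-0.71, adjusted p = 0.011), and Tlr9 and Unc93b1 were higher (0.88 and 0.64, adjusted p 0.013 and 0.039). The interaction of Tlr9 with subset, 0.64 (adjusted p = 0.35), was called with the block (adjusted p = 0.044). Of the 6 granule protease genes whose products Ctsc activates, Prtn3 was the 1 gene tested. It was higher with IMQ in Ly6Chi cells, at 36 ± 10 after Sham and 182 ± 40 after IMQ in wt (2.32, adjusted p = 0.00032) and at 48 ± 18 and 190 ± 30 in N2ΔMy cells (2.07, adjusted p = 0.0022). Like Ctsc it was lower in Ly6Clo than in Ly6Chi cells, at 4.5 ± 3.7 in wt (-5.45) and 9.5 ± 4.0 in N2ΔMy mice (-4.28).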

How the data were processed

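RNA of sorted monocytes was sequenced from 24 libraries (6 groups of 4, grouped by the sample titles) with a stranded total RNA kit. According to the submitters' processing notes and the study's methods, the authors trimmed reads with Trim Galore 0.4.4, aligned them with STAR 2.5.3a to GRCm38.p6, counted them per gene and normalized them with DESeq2. What the authors deposited is whole-number output of that step, treated here as a score rather than as raw counts. Factors computed again by median of ratios were 1.0093 to 1.0112, so no count model was used. The table also holds the authors' own comparison of groups (mean, fold change, standard error, test statistic and p-values), which was not used. Inferred depth had an error of 0.007% on simulated libraries, and binomial intervals are not given, since they need raw counts. Libraries of a group shared the same value in at most 0.81% of genes at 50 or more, so none was a repeat.

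Values were compared as log2(value + 1) with limma 3.58.1 in R 4.3.3 (lmFit, eBayes with trend), over the 11230 genes with at least 50 in at least 1 library, on the 8 libraries of a pair, the 16 of an interaction or all 24. All 10 genes passed this filter. Fold changes on this scale slightly understate those of low genes. On simulated data with 200 of 11230 genes changed by 2 on the log2 scale, 193 were recovered with 6 false calls for N2ΔMy against wt in Ly6Clo cells, 183 with 11 for the interaction with subset and 195 with 1 for the F-test. The simulated noise was normal and independent between libraries, and the changed genes were drawn from the more abundant ones. The changes of the 10 genes were all smaller than 2, and recovery at such sizes was not measured. Exact two-sided permutation tests over the 70 splits of 8 libraries cannot go below 0.0286, which every pair of groups without overlap reaches. Correlations of same-number deviations from the group means were 0.16 to 0.62 in the pairs of groups, all above 0.1, so the numbers were taken to pair the samples, although no source says what they mark and within a library series the mean was -0.01 to 0.24. Tables were made in Python 3.11.15 (pandas 2.3.3, numpy 2.4.6, scipy 1.17.1) and figures with matplotlib 3.10.9. Promoter sequences are RefSeq's.

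The 10 genes and the lists were chosen with earlier results of these data known. From each list the genes called were named, at most 4 per comparison by size (those called with the block alone were named after their values were seen), and for each of the 10 genes the 3 with the highest r. Alternatives were another scaling, other filters, values under 1.1 set to 1.1, the replicate block, all 24 libraries in the fit, either library series and leaving out each library. The study's methods call n biological replicates in general, but no label ties these libraries to separate or pooled mice, so p-values measure the spread between these samples.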

Additional observations from a re-analysis of the deposited data

Results flagged for a closer look

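In 2 of the 60 groups of 4 values (10 genes in 6 groups), 1 library lay far from the other 3, where chance gives about 1 in 20 groups, or 3 of 60. Ctss in replicate 4 of wt Ly6Chi Sham was at 23508 normalized counts, above values of 22509 to 22647 that lie very close together. Ctsh in replicate 1 of N2ΔMy Ly6Chi Sham was at 4130, below values of 5223 to 5423.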

How the results depend on the processing

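All 13 calls of the 10 genes between groups kept their direction under every alternative run, and 24 of the 90 log2 fold changes, none of them called and none above 0.22 in size, turned under some alternative. With no filter on low values the genes called became 1 (wt IMQ, higher), 0 (N2ΔMy Ly6Clo against Ly6Chi, lower) and 1 (genotype in Ly6Clo, higher), and Cst3 was lost in wt Ly6Clo against Ly6Chi. The second library series alone gave 1 higher in wt IMQ, 1 higher in wt Ly6Clo against Ly6Chi and 1 higher for genotype in Ly6Clo cells. The first alone gave 2 higher and 0 lower in N2ΔMy Ly6Clo against Ly6Chi and 1 higher for the interaction with subset. Leaving out 1 library gave 2 to 3 genes higher and 1 to 2 lower in wt, and 1 to 2 higher in N2ΔMy Ly6Clo against Ly6Chi cells. It gave 2 to 3 higher for genotype in Ly6Clo cells and 7 to 9 called in the F-test. The cause was not tested.

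The replicate block gave 2 higher in N2ΔMy Ly6Clo against Ly6Chi, 1 for genotype in Ly6Chi IMQ cells and 1 for the interaction with subset, and changed no other call of the 10 genes except the F-test calls of Cst3 and Ctsh. Over all genes it moved 537 calls to 939 for genotype in Ly6Clo cells, 3 to 54 in Ly6Chi IMQ cells and 116 to 271 for the interaction with subset. Other counts over all genes that moved by over 1.5 times were 592 against 1066 for wt IMQ in the second series, and 215 (no filter) and 180 (second series) for genotype in Ly6Clo cells. Leaving out 1 library left 358 to 560 there. For genotype in Ly6Chi IMQ cells they were 8 (no filter), 15 (all 24 libraries), 1 (second series) and 0 to 4 (1 library left out), and in Sham cells, with 2 calls, 7 (no filter) and 1 (upper-quartile scaling, values set to 1.1, either series). For the interaction with subset they were 18 (second series) and 75 to 173 (1 library left out), and for that with treatment 1 (no filter) in place of 0.

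Directions turned within 1 library series as follows, as log2 fold changes. In the second series, IMQ gave 0.12 for Cst3 in wt cells and 0.15 for Ctsh, 0.059 for Ctss and 0.051 for Cst3 in N2ΔMy cells. N2ΔMy Ly6Clo against Ly6Chi gave -0.046 for Ctsa, -0.046 for Ctsb, -0.083 for Ctsd and -0.47 for Ctsl, the interaction with subset -0.20 for Ctss, and that with treatment 0.14 for Ctsz and 0.0073 for Lgmn. In the first series, Ly6Clo against Ly6Chi gave 0.034 for Ctsd in wt cells and 0.12 for Ctss and 0.074 for Ctsz in N2ΔMy cells, the interaction with subset 0.087 for Ctsa, and that with treatment -0.044 for Ctsb, -0.17 for Ctsc, -0.017 for Ctsd, -0.059 for Ctsh and -0.0044 for Ctss.

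Leaving out 1 library gave ranges across 0 for 16 results. They were -0.31 to 0.071 for Cst3 with IMQ in wt cells, -0.15 to 0.060 for Ctsh and -0.34 to 0.0048 for Cst3 with IMQ in N2ΔMy cells, and -0.17 to 0.031 for Ctsd and -0.26 to 0.26 for Ctsl in Ly6Clo against Ly6Chi cells of wt and N2ΔMy mice. For genotype they were -0.16 to 0.046 for Ctsh and -0.24 to 0.063 for Cst3 in Ly6Clo cells and -0.013 to 0.37 for Cst3 in Ly6Chi IMQ cells, and -0.043 to 0.18 for Ctss in the interaction with subset. In the interaction with treatment they were -0.038 to 0.097 for Ctsb, -0.023 to 0.17 for Ctsc, -0.027 to 0.19 for Ctsh, -0.049 to 0.17 for Ctss, -0.086 to 0.026 for Ctsz, -0.11 to 0.10 for Lgmn and -0.23 to 0.15 for Cst3. The lowest value of the 10 genes was 256 normalized counts, of Ctsl, at inferred depths of 9520000 to 19760000 reads.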
